A study of Homo sapiens with 6 samples.

Results

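The genes described here are 55 that build the mitotic spindle, attach it to chromosomes and part the sister chromatids. They were picked by symbol from 11 roles in the spindle, kinetochore and chromosome cycle, and all 55 had a row in the table of 12305 gene symbols and passed the filter on low values that left 11766 rows to test. The RNA came from OVCAR5, a human ovarian cancer cell line, in 3 libraries labelled as the parent, and from OVCAR5R, a derivative that grew in rising doses of prexasertib (Prex, an inhibitor of the checkpoint kinase CHK1) up to 3 µM, also in 3 libraries. OVCAR5R was kept at 2 µM Prex, and its cells spent at least 4 days without drug before use, so the contrast is between cell lines and not between drug and no drug. The methods describe the RNA of each line as coming from 3 parallel cultures. OVCAR5R is a single derived line, so the spread between libraries is that between cultures of a line and not between independently derived lines.

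CHK1 restrains entry into mitosis while DNA is damaged or incompletely replicated, and its inhibition sends such cells into mitosis early. In mitosis, kinetochores assembled on CENP-A chromatin catch microtubules through the NDC80 complex, the chromosomal passenger complex corrects faulty attachments, and the spindle assembly checkpoint holds back the anaphase-promoting complex (APC/C) until every kinetochore is attached. Many of the genes are transcribed in G2 and M phase, under the MuvB complex with B-MYB and FOXM1, through promoter elements called the cell cycle genes homology region (CHR) and the CCAAT box. RNA from a bulk culture therefore rises both when more cells are in G2 and M and when each such cell holds more of the transcript, and these cannot be told apart here.

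In units of 1e6 reads the estimated depth was 35.8 to 41.3 in OVCAR5 and 50.3 to 55.1 in OVCAR5R, so that all OVCAR5R libraries were the deeper. OVCAR5 replicate 2 stood apart. Its correlation with the other libraries over log2 values was 0.850 to 0.898, against 0.921 to 0.963 among the other 5, and EPCAM, an epithelial adhesion molecule, was at 597 in it against 11.9 to 31.7 elsewhere. Of 7 epithelial markers 6 were in the table, with no row for CDH1. Their summed value was 2388 to 17308 in OVCAR5, the highest in replicate 2, and 3605 to 4816 in OVCAR5R. Compared with OVCAR5 replicates 1 and 3, all OVCAR5R libraries were higher in EPCAM, KRT8, KRT18 and KRT7 and lower in KRT19 and CLDN4. In those replicates KRT7 was at 85.8 and 92.7, against 431 to 583 in OVCAR5R, and KRT19 at 9.99 and 10.7, against 3.09 to 6.04. Of 6 markers of ovarian carcinoma lineage 4 were in the table, at low sums of 11.3 to 34.0 in OVCAR5 and 8.63 to 11.3 in OVCAR5R, with WT1 under 1 in every library and no row for MUC16. Markers of fibroblasts (2 of 7 in the table, sums 1.77 to 15.4 and 6.95 to 9.99), leukocytes (2 of 6, 56.5 to 71.8 and 74.4 to 76.1) and endothelial cells (0 of 4) were also read. The part of these library differences in the results was not tested, so counts are given with and without the libraries concerned.

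No mitotic gene differed between OVCAR5R and OVCAR5 past the threshold. With limma and Benjamini-Hochberg adjustment over all 11766 genes, 0 of 55 had an adjusted p under 0.05 (background 0.119% of all genes), and the lowest adjusted p was 0.451, for CENPI. By their means 46 of 55 were higher in OVCAR5R, beside 49.2% of all genes tested, with a median log2 fold change of 0.28 (1.21-fold) against -0.01 over all genes. The genes share their libraries, so they are not independent counts of a difference. At an unadjusted p under 0.05, 2 genes were higher (4.14% of all genes are called so in that direction), namely CENPI and TTK, and 0 were lower (background 6.25%). In 3 genes, TTK, KIF2C and MYBL2, the lowest OVCAR5R value exceeded the highest OVCAR5 value (background 8.4%), and in 0 genes was the reverse seen (background 8.18%). With 3 libraries against 3, an exact rank test of a single gene cannot give a two-sided p below 0.1.

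The intervals limit how large a difference could have been missed. For 38 of 55 genes the 95% interval of the fold change lay wholly within 2-fold in either direction, a share of 69.1% against 59.4% of all genes tested. For the other 17 the interval reached past a 2-fold increase, and for 0 past a 2-fold decrease. The widest reach upwards was 3.17-fold (CENPI) and the widest downwards 0.513-fold (UBE2S).

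**Figure D1:**
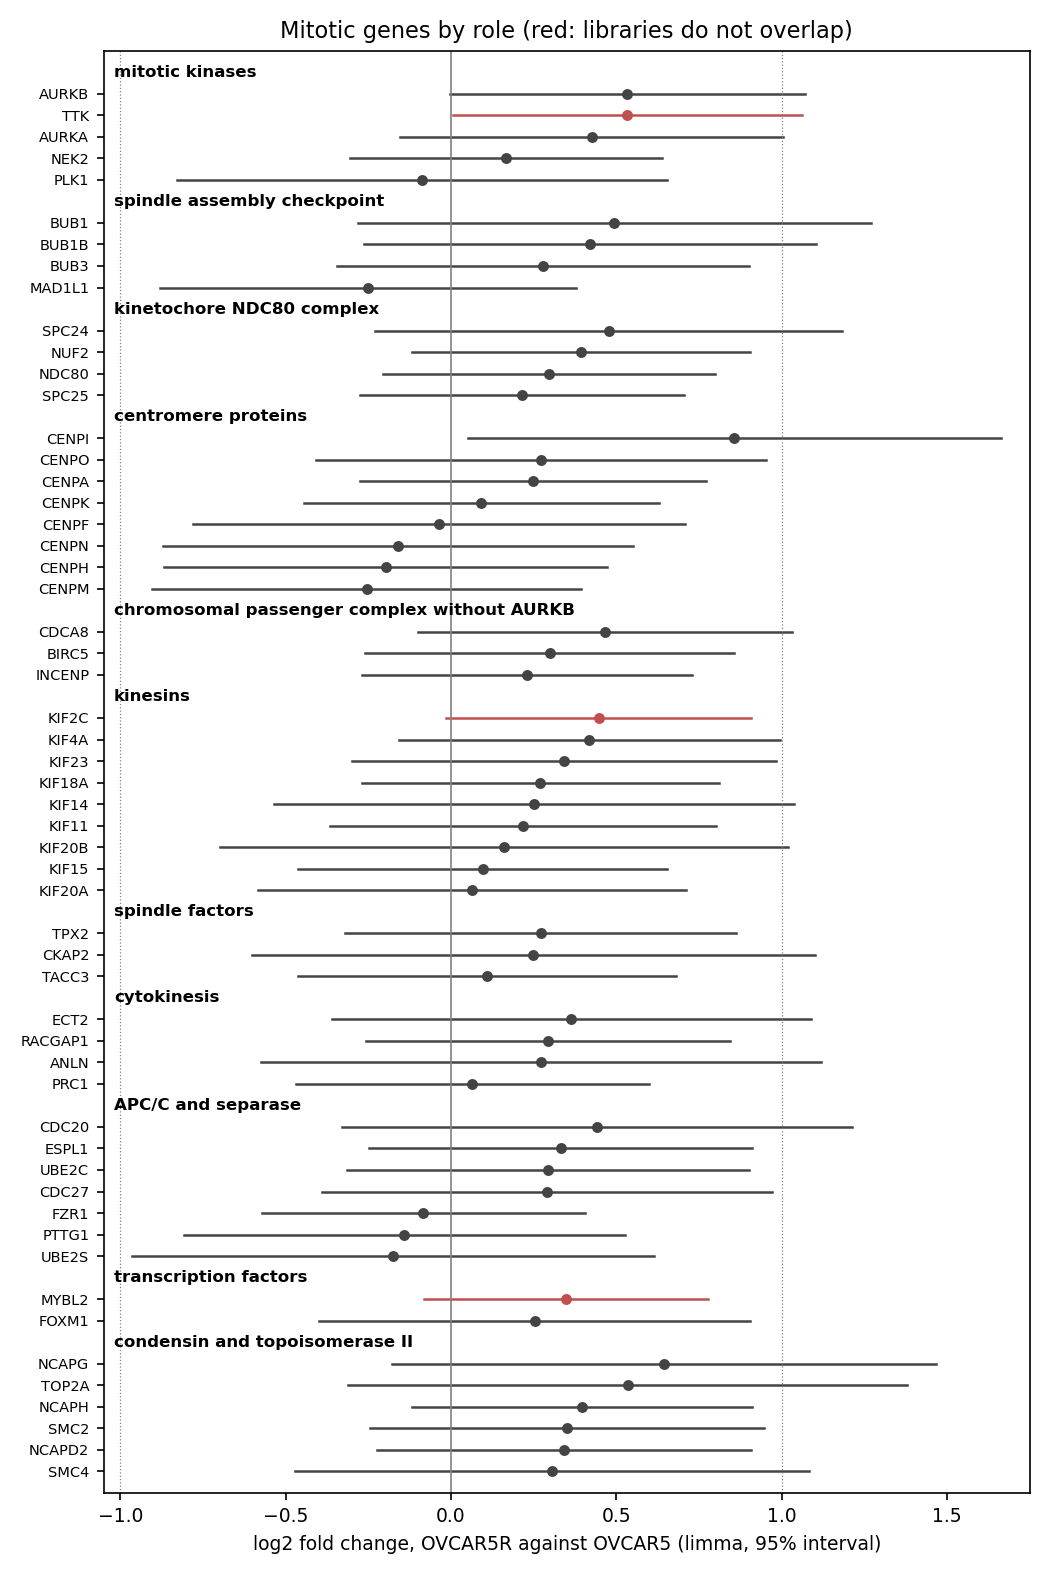
Log2 fold change of each of the 55 mitotic genes (OVCAR5R over OVCAR5, points) with its 95% interval (lines), grouped by role, in red where the libraries of the lines do not overlap; dotted lines mark 2-fold. Most points lie to the right of 0, with a median of 0.28, and only the intervals of CENPI and TTK exclude 0.

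The spread within OVCAR5 was as large as the difference between the lines. For each gene the log2 value in a library was set against the mean of the OVCAR5 libraries. The median over the 55 genes was -0.06 in OVCAR5 replicate 1, -0.30 in replicate 2 and 0.39 in replicate 3, and it was 0.44, 0.13 and 0.25 in OVCAR5R replicates 1, 2 and 3. Over all genes tested the same medians lay within 0.014 of 0. OVCAR5 replicate 3 was the highest OVCAR5 library in 53 of 55 genes (96.4%, beside 31.4% of all genes), the exceptions being CENPF and KIF18A. OVCAR5 replicate 2 was the lowest of all 6 libraries in 35 genes (63.6%, beside 26.8%), and OVCAR5R replicate 1 was the highest in 26 (47.3%, beside 16.7%). OVCAR5 replicates 1 and 2 lay below all OVCAR5R libraries in 33 and 44 genes (60% and 80%, beside 29.8% and 35.2% of all genes). OVCAR5 replicate 3 did so in 4 genes (7.27%, beside 26%), lay within their range in 33 and above all of them in 18 (32.7%, beside 25%). Set against OVCAR5 replicate 3 alone, the OVCAR5R mean was the lower in 41 of 55 genes (beside 49.7% of all genes), with a median difference of -0.12.

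**Figure D2:**
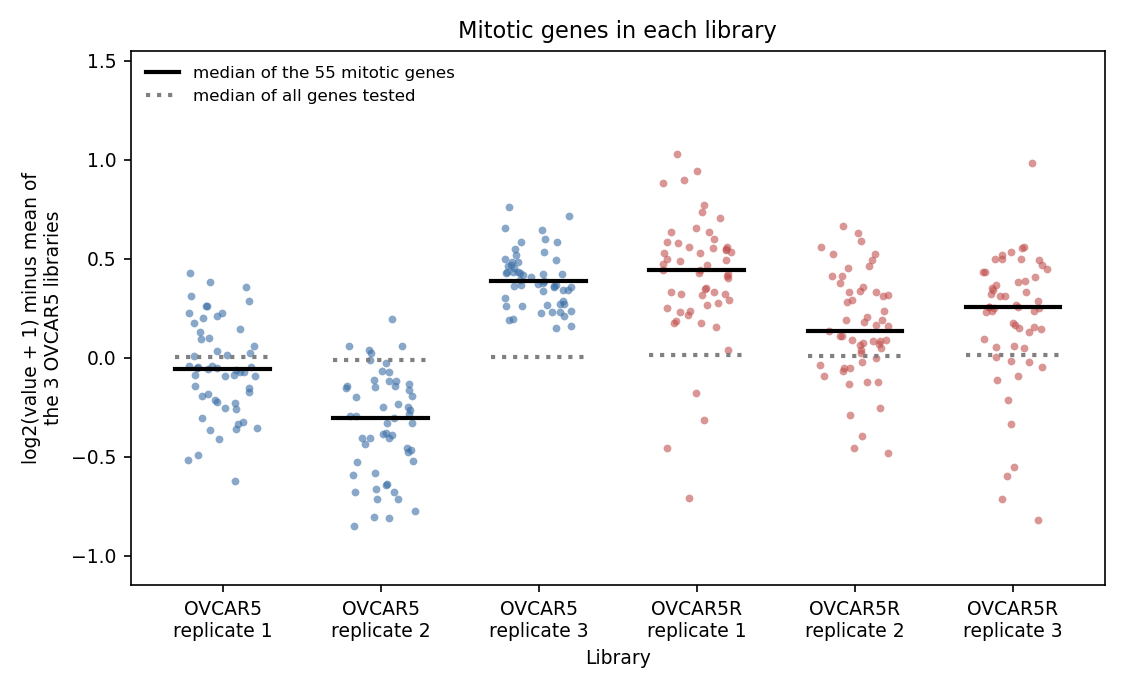
Log2 value of each of the 55 mitotic genes (points, blue for OVCAR5 and red for OVCAR5R) minus its mean over the OVCAR5 libraries, by library, with the median over these genes as a black bar and over all genes tested as a dotted bar. OVCAR5 replicate 3, at a median of 0.39, sits among the OVCAR5R libraries (0.13 to 0.44) and above the other OVCAR5 libraries (-0.06 and -0.30).

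How far the lines stood apart depended on which libraries were counted. Without OVCAR5 replicate 3 the median log2 fold change was 0.48, beside -0.01 over all genes, and 51 of the 55 genes were higher. In that case 13 had an unadjusted p under 0.05 (limma, all higher, background 6.3%) and 29 were higher without overlap (background 16.8%). Of the 55, 0 had an adjusted p under 0.05, and the lowest was 0.200. This library was the highest of OVCAR5 in 53 of the 55 genes, beside 31.4% of all genes. Leaving it out therefore had to raise their log2 fold changes, and these counts are no support for a difference. Without OVCAR5 replicate 2, the library with the high epithelial markers, the median was 0.10, beside -0.001 over all genes, and 36 genes were higher. Of these 0 were higher at an unadjusted p under 0.05 (limma, background 4.32%, lowest adjusted p of the 55 genes 0.530). The same 3 genes, TTK, KIF2C and MYBL2, were higher without overlap in that case (background 13.8%) and in the full data. Without OVCAR5 replicate 1 the median was 0.26, beside 0.001 over all genes, and 46 genes were higher. Without OVCAR5R replicates 1, 2 and 3 in turn it was 0.22, 0.35 and 0.28. The SD of the log2 values was larger in OVCAR5 than in OVCAR5R for 46 of 55 genes (83.6%, beside 65.6% of all genes), with medians of 0.40 and 0.22.

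Shared promoter letters were examined because MuvB binds the CHR and its sequence was not used to choose the genes. RefSeq promoters (GRCh38.p14) were given for 45 of the 55 genes, 51 promoters in all, and the 250 bases before each start were read on both strands. TTTGAA, the common form of the CHR, was in 22 of the 51 promoters (43.1%), beside 8.84% of the promoters of genes tested and 13.3% of all 35116 promoters in the table. TTCGAA, a rarer form, was in 0 of 51, beside 1.39% of those of genes tested. Within the last 100 bases either form was present in 31.4% of the mitotic promoters, beside 3.09% of those of genes tested. CCAAT, the NF-Y box, was in 60.8% against 32.9%, and GCGGGAA, an E2F-type run, in 11.8% against 8.45%. These matches are runs of letters and not measured binding.

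In 13 genes TTTGAA lay on the gene's own strand within the last 100 bases. The windows of 9 of these, chosen to span the roles, are printed 5′ to 3′ on the gene's strand with TTTGAA in capitals, since they show how the letters around the shared run differ. Distances are to the RefSeq start, which can lie inside the outer bounds that GENCODE 29 gives a gene, as for PLK1 and PRC1. The windows lie in order at chr16:23678848-23678877 (plus strand, with TTTGAA 29 bases before the RefSeq start of PLK1), chr15:40161034-40161063 (plus), chr2:26786026-26786055 (plus), chr11:62123989-62124018 (plus), chr1:37692481-37692510 (plus), chrX:70290058-70290087 (plus), chr15:90994538-90994567 (minus), chr1:43358904-43358933 (plus) and chr4:17810932-17810961 (plus).
PLK1: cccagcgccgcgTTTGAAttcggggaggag
BUB1B: gggaccgttaaaTTTGAAacttggcggcta
CENPA: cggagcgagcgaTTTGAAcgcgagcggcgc
INCENP: tgagccttcagtTTTGAAaatcatagtttt
CDCA8: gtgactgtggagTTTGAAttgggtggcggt
KIF4A: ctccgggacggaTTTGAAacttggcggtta
PRC1: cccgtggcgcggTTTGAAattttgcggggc
CDC20: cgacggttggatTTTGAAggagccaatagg
NCAPG: tcgcgggaattaTTTGAAcgttcgagcggt
BUB1B and KIF4A share the run acttggcgg directly after TTTGAA. The CDC20 window also holds a CCAAT box, downstream of TTTGAA. The CDCA8 window holds such a box on the opposite strand, which overlaps the last base of TTTGAA. The NCAPG window holds GCGGGAA upstream of TTTGAA. The 21 genes with TTTGAA had a median log2 fold change of 0.31 with 19 higher in OVCAR5R, and the 24 genes read without it had 0.26 with 19 higher. By library both sets had the same order within OVCAR5, with medians of 0.02, -0.40 and 0.42 with TTTGAA and -0.08, -0.20 and 0.36 without it.

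Among the mitotic kinases, 4 of 5 were higher by their mean (median log2 fold change 0.42). TTK (MPS1, chr6:80003887-80042527), the kinase that starts the checkpoint signal at unattached kinetochores, had OVCAR5 values of 49.7, 36.7 and 54.5, in the order of the replicate numbers used throughout, and OVCAR5R values of 79.7, 58.6 and 65.8. The groups did not overlap, though OVCAR5R replicate 2 exceeded OVCAR5 replicate 3 by little, and the log2 fold change was 0.53 ± 0.23 (SE, n = 3 libraries a line; limma adjusted p = 0.476). AURKB (chr17:8204733-8210600), the Aurora kinase of the chromosomal passenger complex, gave 48.3, 60.0 and 78.8 against 92.3, 97.4 and 78.3. OVCAR5R replicate 3 fell just under OVCAR5 replicate 3, so the lines overlapped by a single library, with a log2 fold change of 0.53 ± 0.23. PLK1 (chr16:23677656-23690367), the Polo-like kinase of mitotic entry and spindle assembly, was the only kinase with a lower mean in OVCAR5R, at 129, 162 and 305 against 164, 204 and 160. Its OVCAR5 values covered the whole OVCAR5R range, and the log2 fold change of -0.09 ± 0.32 had a 95% interval of -0.83 to 0.65. AURKA, the Aurora kinase of spindle poles, and NEK2, the kinase of centrosome separation, had log2 fold changes of 0.42 and 0.17.

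Of the 4 spindle assembly checkpoint genes 3 were higher by their mean (median 0.35). BUB1, a kinase that recruits the checkpoint to kinetochores, was at 184, 121 and 275 in OVCAR5 and 343, 195 and 259 in OVCAR5R, with a log2 fold change of 0.49 ± 0.34. MAD1L1, the kinetochore anchor of MAD2, was at 54.4, 57.1 and 81.6 against 38.3, 66.4 and 58.5, with -0.25 ± 0.27. Both genes overlapped widely between the lines, and the low MAD1L1 value of OVCAR5R replicate 1 went with its chromosome 7 neighbours, described further on. BUB1B (BUBR1) and BUB3, partners in the inhibitor of APC/C, had 0.42 and 0.28.

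All 4 NDC80 complex genes, which form the microtubule-binding rod of the kinetochore, were higher by their mean (median 0.34). OVCAR5R replicate 1 was the highest library in each. SPC24 was at 24.3, 43.6 and 51.4 in OVCAR5 and 59.5, 59.2 and 42.7 in OVCAR5R (0.48 ± 0.31). SPC25, its partner at the inner end of the rod, was at 21.8, 23.8 and 30.2 against 31.5, 28.2 and 28.0 (0.21 ± 0.21). Per kilobase of transcript NDC80 was the most abundant subunit in either line. It had 43.0 ± 6.75 (SD) per kb in OVCAR5 and 53.0 ± 8.71 in OVCAR5R, while NUF2, SPC24 and SPC25 had 21.9, 17.2 and 18.6 in OVCAR5 and 28.7, 23.2 and 21.6 in OVCAR5R.

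The 8 centromere proteins were split, with 4 higher and 4 lower by their mean and a median of 0.03. CENPI (chrX:101098218-101163681), a subunit of the inner kinetochore network, had the largest log2 fold change of the 55 genes. CENPI was at 13.4, 7.79 and 21.0 in OVCAR5 and 27.7, 19.7 and 26.8 in OVCAR5R, a log2 fold change of 0.86 ± 0.35 with an interval of 0.05 to 1.66 (limma adjusted p = 0.451). OVCAR5R replicate 2 lay under OVCAR5 replicate 3, and the level per length was low in both lines, at 4.31 per kb in OVCAR5 and 7.58 in OVCAR5R. CENPM (chr22:41938721-41947164), another inner kinetochore subunit, had the lowest log2 fold change, -0.26 ± 0.28, from 18.9, 28.1 and 36.8 against 19.4, 21.8 and 26.6. CENPF, CENPH and CENPN were also lower by their mean (-0.04, -0.20 and -0.16), and CENPA, the centromeric histone, CENPO and CENPK were higher (0.25, 0.27 and 0.09).

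The 3 other genes of the chromosomal passenger complex were all higher by their mean (median 0.30). CDCA8 (Borealin) was at 69.7, 71.0 and 118 in OVCAR5 and 113, 121 and 115 in OVCAR5R (0.47 ± 0.25). OVCAR5 replicate 3 lay inside the narrow OVCAR5R range, while the other OVCAR5 libraries lay well under it. INCENP, the scaffold of the complex, was at 90.1, 79.7 and 123 against 109, 110 and 119 (0.23 ± 0.22), so that OVCAR5 replicate 3 was the highest library. BIRC5 (Survivin) had 0.30. In OVCAR5 the levels per kb were 92.1 for BIRC5, 49.7 for AURKB, 35.0 for CDCA8 and 24.6 for INCENP, and the order was the same in OVCAR5R (112, 71.2, 47.0 and 28.5).

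All 9 kinesins were higher by their mean (median 0.25). KIF2C (MCAK, chr1:44739818-44767767), which depolymerises microtubules at faulty attachments, was at 102, 104 and 137 in OVCAR5 and 160, 163 and 142 in OVCAR5R. The lines did not overlap, with a log2 fold change of 0.45 ± 0.20 and an interval of -0.01 to 0.91 (limma adjusted p = 0.489). KIF20A, a kinesin of the central spindle, had the smallest difference, 0.06 ± 0.28, from 154, 138 and 208 against 243, 160 and 130. The OVCAR5R libraries of KIF20A spanned the OVCAR5 range on both sides. The other 7 kinesins lay between 0.10 (KIF15) and 0.42 (KIF4A). KIF4A has a near-identical intronless copy, KIF4B, and the counting of reads shared by both is not given in the sources used here.

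All 3 spindle factors and all 4 cytokinesis genes were higher by their mean (medians 0.25 and 0.28), with 0 at an unadjusted p under 0.05 (limma, lowest adjusted p 0.697) and 0 without overlap. TPX2, which activates AURKA on the spindle, was at 385, 312 and 573 in OVCAR5 and 521, 511 and 455 in OVCAR5R (0.27 ± 0.26), and TACC3, a stabiliser of spindle microtubules, was at 173, 211 and 301 against 228, 219 and 276 (0.11 ± 0.25). OVCAR5 replicate 3 was the highest library for both. PRC1, which bundles the microtubules of the central spindle, was at 264, 219 and 361 against 311, 288 and 266 (0.06 ± 0.23). ECT2, the exchange factor that activates RhoA for furrowing, was at 258, 122 and 258 against 294, 228 and 259 (0.36 ± 0.31). The ECT2 difference rested on OVCAR5 replicate 2, without which it was 0.01. CKAP2, RACGAP1 and ANLN had 0.25, 0.29 and 0.27.

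Of the 7 genes of APC/C, its activators, substrates and enzymes, and separase, 4 were higher by their mean and 3 lower (median 0.29). CDC20, the mitotic activator of APC/C and the target of the checkpoint, was at 231, 224 and 503 in OVCAR5 and 466, 418 and 335 in OVCAR5R (0.44 ± 0.33). OVCAR5 replicate 3 was more than all OVCAR5R libraries and the other OVCAR5 libraries were less than all of them, and without it the log2 fold change was 0.82. UBE2S, which extends ubiquitin chains for APC/C, was at 333, 338 and 441 against 538, 308 and 208 (-0.17 ± 0.34). Its OVCAR5R libraries differed from each other more than the lines did. UBE2C, CDC27 and ESPL1 (separase) had 0.29, 0.29 and 0.33, and FZR1, the activator of APC/C in late mitosis, and PTTG1 (securin) had -0.08 and -0.14. PTTG1 has near-identical copies, so its value is uncertain.

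Both transcription factors of the G2 and M programme were higher by their mean. MYBL2 (B-MYB, chr20:43667019-43716496) was at 103, 119 and 131 in OVCAR5 and 147, 142 and 158 in OVCAR5R, without overlap. Its log2 fold change of 0.35 ± 0.19 had the smallest SE of the 55 genes and an interval of -0.08 to 0.78 (limma adjusted p = 0.557). FOXM1 was at 149, 111 and 225 against 175, 165 and 219 (0.25 ± 0.28), its highest value being OVCAR5 replicate 3.

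The condensin and topoisomerase II genes, which compact and untangle chromosomes, were higher by their mean in 6 of 6 cases (median 0.37). NCAPG was at 96.6, 46.7 and 124 in OVCAR5 and 160, 113 and 120 in OVCAR5R, with 0.64 ± 0.36. TOP2A (chr17:40388516-40417950), which cuts and rejoins DNA to untangle it, was at 866, 434 and 1085 against 1367, 830 and 1094, with 0.53 ± 0.37. SMC4 was at 516, 269 and 578 against 702, 416 and 519, with 0.31 ± 0.34. In all 3 genes OVCAR5 replicate 2 was the lowest library by a wide margin and OVCAR5R replicate 1 the highest. NCAPD2, NCAPH and SMC2 had 0.34, 0.40 and 0.35.

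Between genes the levels per kb of the longest coding transcript spanned a wide range in OVCAR5, from 4.31 (CENPI), 5.83 (ESPL1) and 5.89 (KIF14) to 216 (UBE2C), 180 (CDC20), 173 (PTTG1) and 145 (UBE2S). The SDs of these last 4 genes over 3 libraries were 67.4, 89.4, 45.8 and 23.8, and their order is not resolved. TOP2A followed at 138 ± 57.6 (SD), and in OVCAR5R it was at 190, above PTTG1 (158) and UBE2S (138).

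Transcript length and GC content moved with some of the libraries. Across the 55 genes, the deviation of a library from the other 5 had a Spearman correlation with transcript length of 0.66 in OVCAR5 replicate 1 and -0.64 in replicate 2, beside 0.43 and -0.33 over all genes with an annotation. With GC content the values were -0.61 and 0.59, beside -0.27 and 0.31 over all genes. In OVCAR5 replicate 3, the library in which these genes stood high, the correlation was -0.09 with length and 0.33 with GC content, beside 0.05 and -0.02 over all genes. In OVCAR5R replicates 1, 2 and 3 it was 0.15, -0.39 and 0.42 with length and -0.44, 0.43 and -0.24 with GC content. Over all genes the values in these libraries were 0.06, -0.25 and 0.16 with length and -0.28, 0.22 and -0.08 with GC content. Transcripts longer than the median of 3487 bases (27 genes) had a median deviation of -0.52 in OVCAR5 replicate 2, and the other 28 had -0.14. The median log2 fold changes of the longer and shorter genes were 0.28 and 0.27, with 25 of 27 and 21 of 28 higher. The genes share the libraries and length goes with GC content here, and the part of either in the differences was not tested beyond a fit corrected for both, in which the median was 0.26.

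The genes lie on 20 chromosomes, and each was set against the median log2 fold change of the genes tested within 10 Mb on either side (30 to 332 genes). Of the 55 genes 50 stood above their neighbours, and the median difference over all 55 was 0.25. The neighbour medians ran from -0.56 to 0.20, the highest being that of CENPI on chromosome X. A neighbour median below 0 was found for 7 of the 9 genes that were lower in OVCAR5R and for 16 of the 46 that were higher. The lowest neighbour medians belonged to CENPN on chromosome 16 (-0.56) and CENPM on chromosome 22 (-0.55), and both genes were above them. PLK1, also on chromosome 16, had a neighbour median of -0.26. The 5 genes below their neighbours were MAD1L1, CENPF, CENPH, FZR1 and UBE2S.

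The neighbours also varied between OVCAR5R libraries. Set against the OVCAR5 mean, those of CENPN were at -1.03 in OVCAR5R replicate 3, where CENPN itself had the lowest of its 6 values, against 58.8 and 49.8 in replicates 1 and 2. Those of CENPM were at -0.88 and -0.69 in OVCAR5R replicates 1 and 2, where CENPM was at 19.4 and 21.8. The lowest CENPM value, 18.9, was in OVCAR5 replicate 1, where its neighbours were at -0.11. The neighbours of MAD1L1 were at -0.64 in OVCAR5R replicate 1, its lowest library. Those of CENPH on chromosome 5 were at -0.49 in OVCAR5R replicate 3, where CENPH was at 11.8 against 22.9 in OVCAR5R replicate 1. Not every gene moved with its neighbours. Those of CENPK, also on chromosome 5, were at -0.55 in OVCAR5R replicate 3, while CENPK itself was at -0.09. The part of these regional differences in the values of the genes was not tested.

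**Figure D3:**
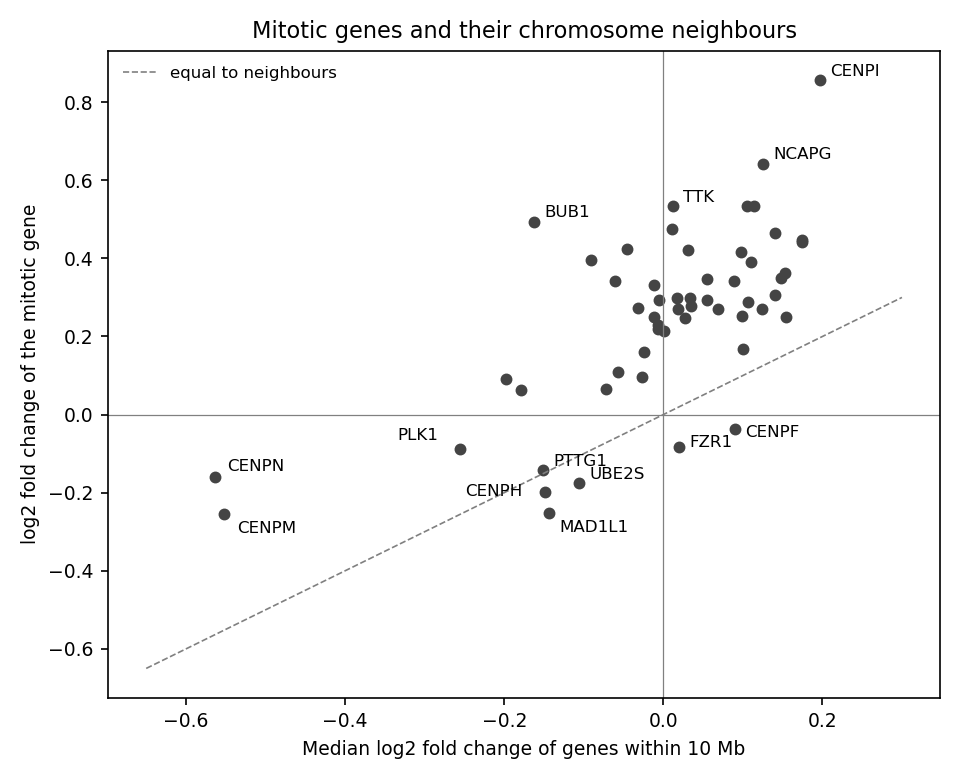
Log2 fold change of each of the 55 mitotic genes (OVCAR5R over OVCAR5) against the median log2 fold change of genes tested within 10 Mb. The dashed line marks equality, 50 genes lie above it, and the lowest neighbour medians are those of CENPN and CENPM.

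Other genes of the same pathway were read for comparison. Of 85 other mitotic genes, all tested, 57 were higher by their mean with a median of 0.15, 4 were higher and 1 lower at an unadjusted p under 0.05 (background 4.14% and 6.25%), and 0 had an adjusted p under 0.05 (limma, lowest 0.270). Without overlap 10 were higher and 2 lower (background 8.4% and 8.18%). Of the 43 other spindle, kinetochore and checkpoint genes 33 were higher by their mean, with a median of 0.24. They ran from CENPE, a kinetochore kinesin, at -0.74 to DLGAP5 (HURP), a stabiliser of kinetochore fibres, at 0.83. DLGAP5 was at 125, 108 and 157 in OVCAR5 and 238, 219 and 230 in OVCAR5R, without overlap, with 0.83 ± 0.20 (limma adjusted p = 0.270). The 18 cohesin and other condensin genes had a median of 0.11 with 11 higher, from NCAPH2 (-0.75) to ESCO2 (0.67), and the 14 other APC/C genes also had 0.11 with 9 higher, from ANAPC16 (-0.30) to FBXO5 (0.33).

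The 10 genes that control CDK1 and cyclin B, the switch into mitosis, were not higher as a list, with 4 of 10 higher and a median of -0.10. CDK1 was at 88.0, 88.8 and 112 in OVCAR5 and 155, 96.7 and 114 in OVCAR5R (0.32 ± 0.23, limma adjusted p = 0.665). CCNB1 was at 175, 193 and 289 against 297, 189 and 131 (-0.14 ± 0.33, limma adjusted p = 0.920), so its OVCAR5R libraries spanned more than the OVCAR5 range. CCNA2, the A-type cyclin of S and G2, was the lowest, at 70.8, 59.4 and 101 against 53.1, 44.0 and 57.3. OVCAR5R was below OVCAR5 in every library (-0.55 ± 0.25, limma adjusted p = 0.491). CCNA2 lies on chromosome 4. Of the other mitotic genes there, CENPE (-0.74), PLK4 (-0.53), MAD2L1 (-0.52), ANAPC10 (-0.14) and ANAPC4 (-0.05) were lower. CENPC (0.19), PDS5A (0.16) and CENPU (0.13) were higher. Among the mitotic genes described by role above, NCAPG (0.64) and TACC3 (0.11) also lie on chromosome 4, and both were higher. Their neighbour medians were 0.13 and -0.06. NCAPH2 lies on chromosome 22, as do GTSE1 (-0.37) and CENPM. Chromosome neighbours of the other mitotic genes were not read, and the part of their regions was not tested.

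Lists of S and of G2 and M genes were read side by side. Of the 55 genes 25 are on the G2/M list of the Seurat package, and 24 of these were higher with a median of 0.31, while 22 of the 30 not on it were higher with a median of 0.25. The 29 G2/M genes outside the 55 had 20 higher and a median of 0.18, and the 43 S phase genes had 34 higher, a median of 0.29 and 5 with an unadjusted p under 0.05, all higher (background 4.14%). The medians of the S phase list by library, -0.09, -0.26 and 0.29 for OVCAR5 and 0.40, 0.17 and 0.26 for OVCAR5R, followed the order found in the 55 mitotic genes, with OVCAR5 replicate 3 above the other OVCAR5 libraries.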

How the data were processed

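Total RNA of 6 libraries was sequenced. Per the labels the genome build was hg38, and the aligner, counter, annotation and strandedness are not given in the sources used here. The deposited values are a linear signal per gene that the authors quartile-normalized, not counts and not per length. Their low values are not whole multiples of 1 read often enough (73.5% to 76.4% within 0.02) for a count test, and depth was estimated from the step. A copy of an identical row was dropped. Log2(value + 1) was tested with limma 3.58.1 in R 4.3.3 (trend, two-sided) after keeping genes whose value reached 1 in 3 or more libraries, with Benjamini-Hochberg adjustment over all. The study names a Mann-Whitney test, represented here by the groups that do not overlap. Fold changes are on the log2(value + 1) scale, errors are SEs of that fit, and values per kb use the longest coding transcript of GENCODE 29 (99.4% of symbols matched). Named were the highest and lowest gene of each role, genes without overlap or with an unadjusted p under 0.05, and AURKB, PLK1, CDC20, FOXM1 and TOP2A. Members and lists were chosen with earlier results of these data known. The phase lists come from Seurat 5.3.0. Other pseudocounts, filters, scalings, a replicate block and each library left out were tried, and a correction for GC and length was added after seeing the data.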

Additional observations from a re-analysis of the deposited data

How the results depend on the processing

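Under the 15 alternatives fitted across genes no mitotic gene reached an adjusted p under 0.05 (lowest 0.200), and the median log2 fold change stayed above 0, from 0.10 to 0.48 with a library left out. The count of 2 genes higher at an unadjusted p under 0.05 became 4 with no filter (background 4.44%). It also became 4 with quantile normalization (background 5.37%) and with the GC and length correction (background 5.44%). It was 1 with median ratio scaling (background 3.99%) and 1 without the trend (background 4.22%). With a library left out it ranged from 0 to 13. It was 0 without OVCAR5 replicate 1 or 2 (background 3.65% and 4.32%) and without OVCAR5R replicate 1 or 3 (background 3.45% and 2.24%). Without OVCAR5R replicate 2 it was 1 (background 2.58%). The count of 3 higher without overlap became 6 with quantile normalization (10.9% of the genes, as of all genes), and ranged from 3 to 29, and that of lower genes without overlap from 0 to 2. Where those calls rested on a library, leaving out OVCAR5 replicate 3 gave the 13 and 29 (beside 6.3% and 16.8% of all genes). That library was the highest of OVCAR5 in 53 of the 55 genes, so its loss had to raise their fold changes. Leaving out OVCAR5R replicate 1 gave the 2 lower genes (CENPH and UBE2S, beside 12.1%), while leaving out OVCAR5 replicate 1 gave 1 (CENPM, beside 12.4%). Leaving out OVCAR5R replicate 2 gave 9 higher without overlap (beside 13.3% of all genes) and OVCAR5R replicate 3 gave 8 (beside 12.1%). The 5 other mitotic genes with an unadjusted p under 0.05 (beside 1222 of 11766 over all genes) became 9 with the GC and length correction (beside 1502 of 11695). With a library left out they ranged from 1 to 13. They were 9 without OVCAR5 replicate 2 and 13 without OVCAR5 replicate 3 (beside 1275 and 1714 of 11766). Without OVCAR5R replicates 1, 2 and 3 they were 1, 2 and 3 (beside 939, 933 and 864 of 11766). Of 24 named genes 18 kept their sign under every alternative, and KIF20A, PLK1, PRC1, SMC4, TACC3 and UBE2S changed it under at least 1. The cause was not tested. Across all genes the 14 calls ranged from 0 to 29 with a library left out, so the depth of replication, at 3 libraries a line, limits every statement.

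Replicates with the same number in both lines had correlations of their deviations of -0.004, 0.176 and -0.119. Those of unlike numbers ran from -0.193 to 0.251. Deviations from a mean of 3 libraries depend on each other, so these values cannot settle whether the numbers pair the libraries. Over all genes the correlation with GC content, in OVCAR5 and OVCAR5R, was -0.27 and -0.28 in replicates 1. It was 0.31 and 0.22 in replicates 2, and -0.02 and -0.08 in replicates 3. The correlation with transcript length was 0.43 and 0.06 in replicates 1. It was -0.33 and -0.25 in replicates 2, and 0.05 and 0.16 in replicates 3. A shared batch was not tested. A replicate block left 2 mitotic genes higher at an unadjusted p under 0.05 (background 4%). It gave 8 of the other mitotic genes (beside 1305 of 11766 over all genes), and moved the adjusted calls over all genes from 14 to 5. The block with the GC and length correction gave 3 (background 4.57%), 9 (beside 1403 of 11695) and 4.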
